A study of Homo sapiens and Mus musculus with 12 samples.

Results

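Heavy and light ends of one sucrose gradient were compared in the state labelled S of A375, a human melanoma cell line. In polysome profiling a cell lysate is spun through sucrose so that an mRNA sediments by the number of ribosomes it carries. The polysome library held RNA from the densest fractions and the monosome library RNA from the single-ribosome peak and several lighter fractions, which also hold RNA in small particles with no translating ribosome. Of 16782 genes listed in the A375 table, 12638 (75.3%) averaged 1 TPM or more across the 6 A375 libraries and were compared. TPM is a gene's read density per length scaled to a library total of 1000000. Each value below is the log2 ratio of polysome TPM + 1 to monosome TPM + 1 minus the value of the median gene, so 0 is the median gene and a positive value is higher in polysomes. The genes nearest the expression minimum were PA2G4P5 (mean 1.001 TPM, ratio 0.37) just inside and SCXA (mean 0.9995 TPM, ratio -0.36) just outside.

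The series holds 12 libraries. Human A375 and mouse Yumm1.7 melanoma cells each contributed parental cells and drug-tolerant persisters, cells that outlive a drug without stable resistance. Sample titles carry the letters S and P for the states without a key to which is which, so the letters are kept, and no drug, dose or time is given in the sources used here. Each state gave 1 polysome, 1 monosome and 1 input library, the last from RNA taken before the gradient. There is therefore no replicate, no test and no p-value, and no difference below can be set against a spread between replicates. A call means a value at least 2-fold from the median gene.

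The number of ribosomes on an mRNA rises with the rate of initiation and with the length of the coding sequence, and falls with the rate of elongation. Initiation can be held back by structures or short reading frames in the 5′ UTR, by proteins that bind there, and by low activity of the kinase mTORC1 for mRNAs that begin with a run of pyrimidines. RNAs that code for no protein mostly stay in the light part of a gradient. Melanoma cells are of the pigment cell lineage, and their mRNA levels for lineage, antigen presentation and cell division genes shift when they tolerate drugs.

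The fractions differed in makeup as well as in single genes. The listed genes summed to 90.1% of 1000000 TPM in the S polysome library, 71.9% in the S monosome library and 81.0% in the S input library. The 10 most abundant genes held 10.6% of the listed TPM in polysomes and 45.9% in monosomes, and the 2 mitochondrial rRNAs made up 1.20% and 24.8% of 1000000 TPM. TPM is a share of a library, so the median gene itself was 0.67 higher in polysomes on the log2 scale, and this shift is taken off every value. Of 8 melanoma markers, 6 were listed, with TPM sums of 2070 in polysomes, 977 in monosomes and 2986 in input, while MLANA and TYR are not analysed here. Most of each sum was S100A1, with 1292, 547 and 2123 TPM in these libraries. SOX10 had 197, PMEL 110 and MITF 32.0 TPM in polysomes. Markers of keratinocytes (2 of 12 listed), leukocytes (2 of 10), endothelium (3 of 8) and fibroblasts (3 of 10) summed to between 4.06 and 101 TPM in polysomes, between 1.04 and 44.4 TPM in monosomes and between 1.22 and 75.3 TPM in input.

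At the 2-fold line, 2624 genes (20.8%) counted as higher in S polysomes than in S monosomes and 2114 (16.7%) as lower. The list counts given further on stand beside these shares. A 4-fold difference was passed by 803 genes upward and 338 downward, and an 8-fold difference by 128 and 64. The quartiles lay at -0.73 and 0.82. Without the subtraction of the median gene, 4892 genes passed 2-fold upward and 614 downward. The split by RNA class was wide. Protein-coding genes (11143) had a median of 0.10, with 22.5% higher and 13.1% lower, whereas long noncoding RNAs (806) had a median of -1.08, with 1.12% higher and 54.3% lower. Genes classed as snoRNAs (77), guides of rRNA modification that mostly lie in introns of host genes, had a median of -0.78.

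**Figure D1:**
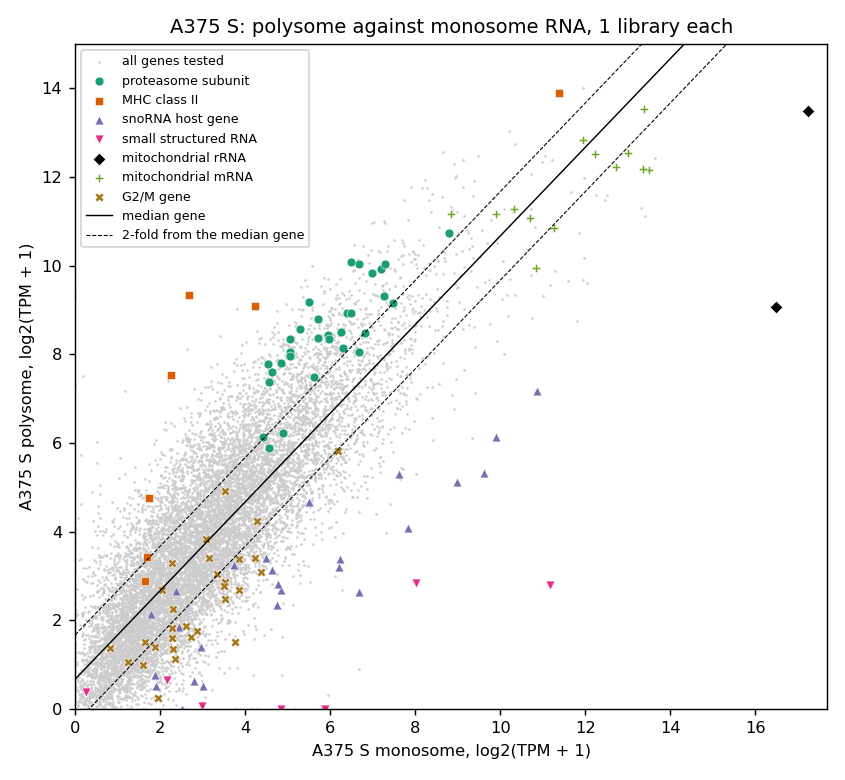
Monosome (x) against polysome (y) RNA of A375 S as log2(TPM + 1), 1 library each, with every gene tested in grey and 7 groups in colour. The solid line is the median gene (0.67 above equality) and the broken lines lie 2-fold to either side. Above the upper line lie 27 of 31 proteasome and 6 of 7 MHC class II genes, and below the lower line lie 23 of 25 snoRNA host genes, 7 of 8 small structured RNAs, both mitochondrial rRNAs and 19 of 30 G2/M genes.

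Of the 15 lowest genes, 14 are not protein-coding. The exception, SPRR2D, a small cornified-envelope protein gene, was listed at 0 in S polysomes and S input against 12.8 TPM in S monosomes, and had 53.4 TPM in P polysomes and 73.4 TPM in P monosomes. RN7SL2, an RNA of the signal recognition particle, had 5.96 TPM in polysomes and 2325 TPM in monosomes, a value of -9.05. It lies at chr14:49862550-49862849 on the minus strand (GRCh38). RN7SL3, another copy, had 0.876 TPM in polysomes and 102 TPM in monosomes (-6.45). These copies and the pseudogenes RN7SL5P and RN7SL4P are nearly identical, so the split of reads among them is uncertain. RMRP, the RNA of the RNase that processes rRNA and mitochondrial primers, was listed at 0 in polysomes against 56.8 TPM in monosomes. BCYRN1, a small cytoplasmic RNA that represses translation in neurons, was listed at 0 in polysomes against 57.6 TPM in monosomes. SCARNA7, a guide RNA of Cajal bodies that lies within an intron of KPNA4, had 6.16 TPM in polysomes, 258 TPM in monosomes and 3.99 TPM in input, so of the 3 S libraries only the monosome library was high. Of 8 small structured RNAs tested, 7 were lower and none higher, with a median of -5.68. Libraries were made from RNA caught on poly-T beads, so values of RNAs without a tail describe what passed that selection.

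Mitochondrial rRNAs, the RNAs of the mitochondrial ribosome, followed the same direction. MT-RNR1 had 533 TPM in polysomes, 92135 TPM in monosomes and 4954 TPM in input (-8.10). MT-RNR2 had 11438 TPM in polysomes, 156088 TPM in monosomes and 22163 TPM in input (-4.44). Both were thus far more abundant in the monosome library than in either of the others. With mitochondrially encoded genes and small structured RNAs left out and the rest rescaled, an alternative added after the data were seen, the medians of the 39 lists left kept their side of the 2-fold line.

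The snoRNA host genes are transcribed for the snoRNAs in their introns, and their spliced exons code for little or no protein. All 25 tested lay below the median gene, 23 of them at least 2-fold lower and none higher, with a median of -2.84. SNHG5 had 39.2 TPM in polysomes, 790 TPM in monosomes and 338 TPM in input (-4.96). ZFAS1 had 33.7 TPM in polysomes, 506 TPM in monosomes and 240.3 TPM in input (-4.54). GAS5, known to be short-lived because translating ribosomes send it to nonsense-mediated decay, had 69.1 TPM in polysomes, 959 TPM in monosomes and 551 TPM in input (-4.44). Contrasts with input are likewise centred on their own median gene. Before centring that gene lay at -0.69 for monosomes over input and -0.005 for polysomes over input. The centred list median was 0.996 for monosomes over input and -1.76 for polysomes over input, contrasts that share the input library. SNHG21 (-0.31) and SNHG11 (-0.37) were the 2 host genes within 2-fold. At their annotated start base SNHG5, ZFAS1 and SNHG19 have a pyrimidine run of the kind found in ribosomal protein mRNAs, shown further on for SNHG5. GAS5, SNHG16 and SNHG29 have none there. Only the annotated start base was examined, so a run at another start base would be missed.

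Nuclear noncoding RNAs lay less far down, with 7 of 10 lower, none higher and a median of -1.51. NORAD, a cytoplasmic RNA that binds PUMILIO proteins and sits in this list with the nuclear ones, had 43.8 TPM in polysomes and 143 TPM in monosomes (-2.35). MALAT1, an abundant RNA of nuclear speckles, had 341 TPM in polysomes and 401 TPM in monosomes (-0.90) against 31.7 TPM in input. NEAT1, the scaffold of paraspeckles, had 29.5 TPM in polysomes and 40.9 TPM in monosomes (-1.13). The list median fell inside the 2-fold line with a pseudocount of 5 (-0.96) and without the subtraction of the median gene (-0.84). Among long noncoding RNAs with a mean of at least 5 TPM, 144 of 227 were lower and 7 higher.

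The 6 cytosolic ribosomal protein mRNAs tested also lay below the median gene. Ribosomal protein mRNAs carry a TOP tract, a C at the first base followed by further pyrimidines, through which mTORC1 sets their translation. Only 6 cytosolic ribosomal protein genes were used in A375, and the others are not analysed here. In Yumm1.7 S the medians lay above the median gene, 0.66 over 47 large-subunit and 0.65 over 31 small-subunit genes. The low values are therefore given for these 6 genes of A375 and not for the family. RPLP1, an acidic stalk protein, had 432 TPM in polysomes and 3611 TPM in monosomes (-3.73). RPLP2 had 783 TPM in polysomes and 4251 TPM in monosomes (-3.11), and RPLP0 had 822 TPM in polysomes and 3923 TPM in monosomes (-2.92). RPSA, of the small subunit, had 804 TPM in polysomes and 3116 TPM in monosomes (-2.62). FAU, a ubiquitin-like protein fused to a ribosomal protein, was at -0.94. Start sites of 5 genes with the tract are shown, and VIM as one without, with the tract in capitals and 5 bases before the annotated start base.
RPLP1: gagagCCCCTTTCCTCagctgccgc
RPLP2: gccttCCTTTTCCTCCCTgtcgcca
TPT1: tcggcCTTTTCCgcccgctcccccc
EEF2: gcgttCTCTTCCgccgtcgtcgccg
SNHG5: tcggtCTTTTacgtcggccttcgcg
VIM: gatctgggaggcccacgtatggcgc
The start sites are those of RefSeq (GRCh38.p14) at chr15:69452813-69452837 (+) for RPLP1, chr11:809962-809986 (+) for RPLP2, chr13:45341164-45341188 (−) for TPT1, chr19:3985444-3985468 (−) for EEF2, chr6:85678714-85678738 (−) for SNHG5 and chr10:17228236-17228260 (+) for VIM.

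Other mRNAs on the TOP list were split. Of 20 tested, 8 were lower and 2 higher, with a median of -0.64. PABPC1, the poly(A) binding protein, had 313 TPM in polysomes and 975 TPM in monosomes (-2.30). TPT1, a small growth-associated protein, had 752 TPM in polysomes and 2294 TPM in monosomes (-2.28). EEF1A1, which brings aminoacyl-tRNA to the ribosome, had 5507 TPM in polysomes and 12884 TPM in monosomes (-1.89). The exceptions were VIM, the intermediate filament vimentin, with 8445 TPM in polysomes and 1181 TPM in monosomes (2.17), and EEF2, the translocase, with 965 TPM in polysomes and 182 TPM in monosomes (1.74). VIM has no tract at its annotated start base, and EEF2 has one of 7 bases. Over all protein-coding genes with a start site window, 489 (5.28%) had at least 5 pyrimidines in a row at the start base, the first of them a C. Their median was -0.10 with 18.8% lower, against 0.13 with 12.9% lower for the 8771 without.

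The factors that make and feed ribosomes were placed on the other side. All 22 cytosolic tRNA synthetase genes, whose products load tRNAs with amino acids, were above the median gene, 15 of them at least 2-fold higher, with a median of 1.33. AIMP2, a scaffold of the synthetase complex, had 76.8 TPM in polysomes and 3.40 TPM in monosomes (3.48), and AARS1, for alanine, had 93.8 TPM in polysomes and 8.70 TPM in monosomes (2.62). Initiation factors had 14 of 33 higher and 2 lower, with a median of 0.79. EIF5B, which joins the subunits, had 629 TPM in polysomes and 40.3 TPM in monosomes (3.27). EIF4G1, the scaffold of the cap complex, had 194 TPM in polysomes and 12.4 TPM in monosomes (3.20). EIF3A, the largest subunit of eIF3, had 522 TPM in polysomes, 40.2 TPM in monosomes and 59.1 TPM in input (3.001). EIF3E, which is on the TOP list, went the other way at -1.92, with 284 TPM in polysomes and 677 TPM in monosomes. Ribosome biogenesis factors had 32 of 66 higher and none lower, with a median of 0.95. NCL, nucleolin, had 955 TPM in polysomes, 94.1 TPM in monosomes and 116 TPM in input (2.66), and GNL2, a nucleolar GTPase, had 237 TPM in polysomes and 12.9 TPM in monosomes (3.43). RNA polymerase I genes were mixed, with 4 of 14 higher and 1 lower, beside 20.8% higher and 16.7% lower over all genes tested. UBTF, which binds rDNA, was at 2.66, the catalytic subunit gene POLR1A at 1.18 and POLR1D, shared with polymerase III, at -1.60.

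**Figure D2:**
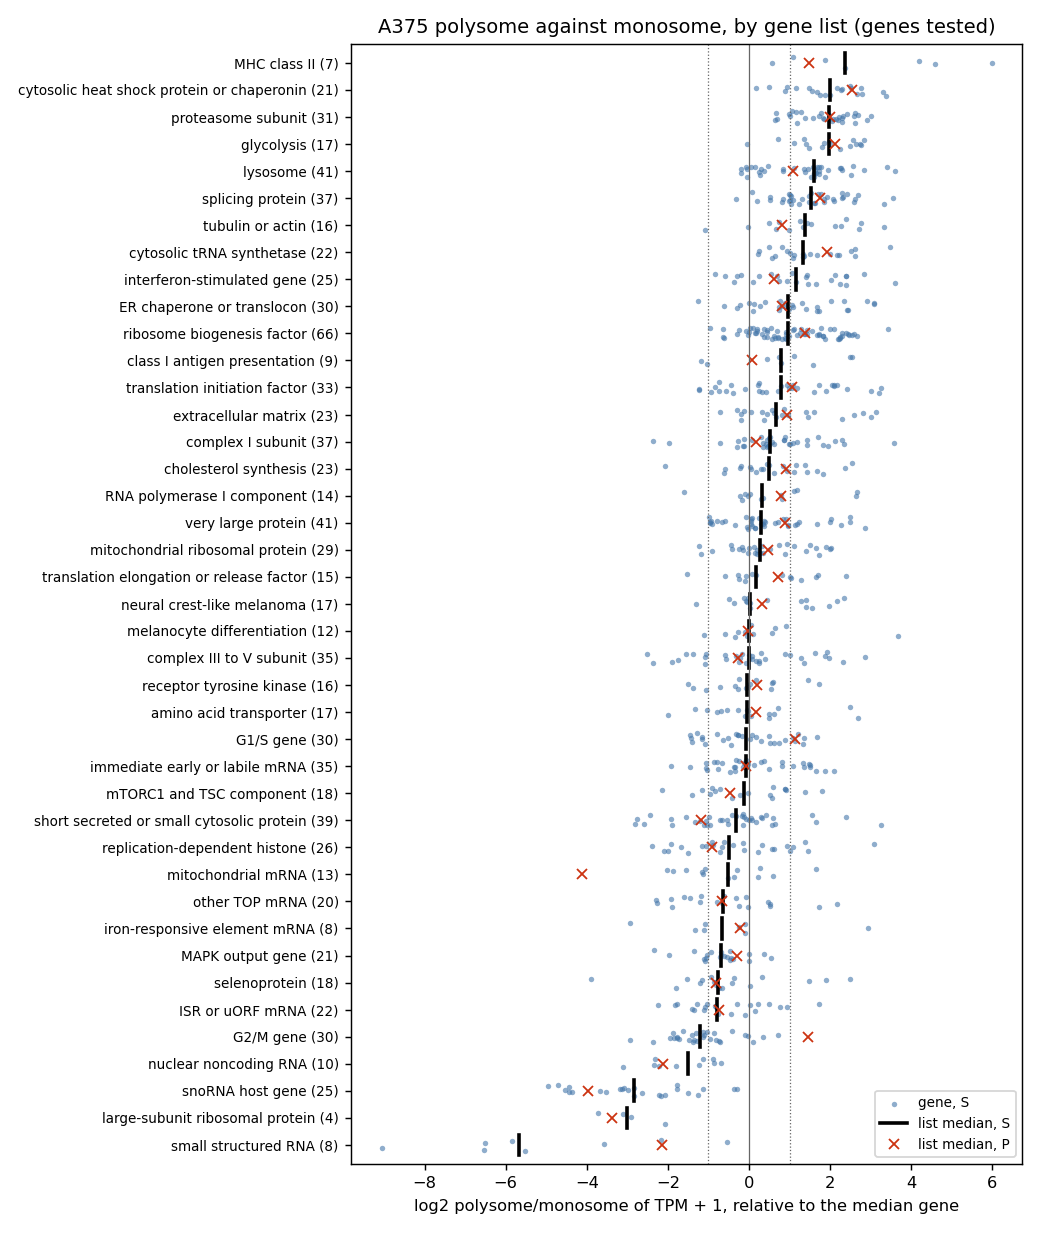
Gene lists by their centred log2 polysome-to-monosome ratio of TPM + 1, with the number of genes tested in brackets. Dots are genes in A375 S, black bars the list medians in S, and red crosses the list medians in P. Medians in S run between 2.36 for MHC class II and -5.68 for small structured RNAs, and the crosses for mitochondrial mRNA (-4.12), small structured RNAs (-2.14) and G2/M genes (1.46) stand far from their bars.

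Large groups of housekeeping mRNAs were high in S polysomes. All 31 proteasome subunits, parts of the protease that degrades ubiquitin-tagged proteins, were above the median gene, and 27 were at least 2-fold higher, with a median of 1.98 and a lowest value of 0.65. PSMC3, an ATPase of the base, had 576 TPM in polysomes and 44.4 TPM in monosomes (3.002), and PSMD4, a ubiquitin receptor, had 1078 TPM in polysomes and 89.2 TPM in monosomes (2.91). UBB, a polyubiquitin gene, had 6058 TPM in polysomes and 401 TPM in monosomes (3.25). Cytosolic heat shock proteins and chaperonin subunits had 17 of 21 higher and none lower, with a median of 2.01. HSP90AB1, the constitutive cytosolic HSP90, had 2072 TPM in polysomes and 228 TPM in monosomes (2.51), and STIP1, which links HSP70 to HSP90, had 327 TPM in polysomes and 19.8 TPM in monosomes (3.31). HSPA1A and HSPA1B, inducible HSP70 genes, were at 3.37 and 2.67, but they are near-identical copies and their reads can be split between them.

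Glycolysis and splicing genes lay on the same side. Of 17 glycolytic genes, 15 were higher and none lower, with a median of 1.96. PGK1, which makes ATP from bisphosphoglycerate, had 532 TPM in polysomes and 46.4 TPM in monosomes (2.82). ENO1, enolase, had 5036 TPM in polysomes and 478 TPM in monosomes (2.73), while GAPDH had 16577 TPM in polysomes and 3922 TPM in monosomes (1.41). Splicing proteins had 28 of 37 higher and none lower, with a median of 1.52. SNRNP70, a protein of the U1 particle, had 503 TPM in polysomes and 26.0 TPM in monosomes (3.56), and HNRNPA2B1, an RNA-binding protein, had 1400 TPM in polysomes, 163 TPM in monosomes and 272 TPM in input (2.43). Tubulins and actins had 10 of 16 higher and 1 lower, with a median of 1.38. TUBA1A, an alpha-tubulin, had 1995 TPM in polysomes and 125 TPM in monosomes (3.32), and ACTB, beta-actin, had 5145 TPM in polysomes and 2034 TPM in monosomes (0.67).

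Lists of lysosomal, endoplasmic reticulum chaperone and extracellular matrix genes, whose mRNAs are largely translated at the endoplasmic reticulum, had 1 lower member between them. Over all genes tested 16.7% were lower and 20.8% higher. The proteasome, glycolysis and splicing lists had no lower member either, so this trait did not set the 3 lists apart. Lysosomal genes had 27 of 41 higher and none lower, with a median of 1.59. GRN, progranulin, had 820 TPM in polysomes and 41.3 TPM in monosomes (3.61). CTSL, a cysteine protease, had 223 TPM in polysomes and 12.3 TPM in monosomes (3.41), and CD63, a membrane protein of lysosomes and melanosomes, had 3157 TPM in polysomes and 338 TPM in monosomes (2.55). Relative to input and to the median gene, the lysosomal median was 0.37 in polysomes and -0.89 in monosomes. Most of the centred contrast thus lay in the monosome library. Chaperones of the endoplasmic reticulum had 14 of 30 higher and 1 lower, with a median of 0.96. HSP90B1 had 2867 TPM in polysomes and 214 TPM in monosomes (3.07), PDIA3, a disulfide isomerase, had 823 TPM in polysomes and 60.8 TPM in monosomes (3.07), and HSPA5, known as BiP, had 774 TPM in polysomes and 95.6 TPM in monosomes (2.34). Extracellular matrix genes had 8 of 23 higher and none lower, with a median of 0.65. In both of these lists 15 genes lay within 2-fold of the median gene. LAMB2, a laminin chain, had 102 TPM in polysomes and 6.42 TPM in monosomes (3.13), and COL9A3, a collagen chain, had 1994 TPM in polysomes and 155 TPM in monosomes (3.01).

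MHC class II genes, which professional antigen-presenting cells and some melanomas use to show peptides to CD4+ T cells, held 3 of the 15 highest places. HLA-DRA, the alpha chain of HLA-DR, had 650 TPM in polysomes, 5.45 TPM in monosomes and 103 TPM in input (5.99). It lies at chr6:32439842-32445046 (GRCh38, plus strand). HLA-DPB1 had 183 TPM in polysomes, 3.79 TPM in monosomes and 11.7 TPM in input (4.59), and HLA-DPA1 had 547 TPM in polysomes, 17.8 TPM in monosomes and 69.6 TPM in input (4.20). The 2 DP genes overlap on opposite strands and strand use is not given in the sources used here, so their reads may not be fully apart. CD74, the chaperone that guards the class II groove, had 15305 TPM in polysomes, 2651 TPM in monosomes and 8722 TPM in input (1.86), which made it one of the most abundant mRNAs of S. HLA-DMA, which helps exchange peptides, was at 2.36, HLA-DMB at 1.07 and HLA-DOA at 0.57. These 7 genes were grouped after their values were seen, so their median of 2.36 is a description.

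Class I and interferon genes lay nearer the median gene. HLA-B had 38.4 TPM in polysomes and 7.39 TPM in monosomes (1.57), and HLA-E was at 0.79. B2M, their common light chain, had 5685 TPM in polysomes and 2137 TPM in monosomes (0.74), and TAPBP, tapasin, was lower at -1.19. In all, 4 of 9 class I genes were higher and 2 lower. Interferon-stimulated genes had 14 of 25 higher and none lower, with a median of 1.15. IRF9, which carries the interferon signal to DNA, had 27.6 TPM in polysomes and 0.495 TPM in monosomes (3.59). ISG15, a ubiquitin-like protein, had 150.5 TPM in polysomes and 17.1 TPM in monosomes (2.39). The interferon median fell inside the 2-fold line with a pseudocount of 5 (0.62).

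**Figure D3:**
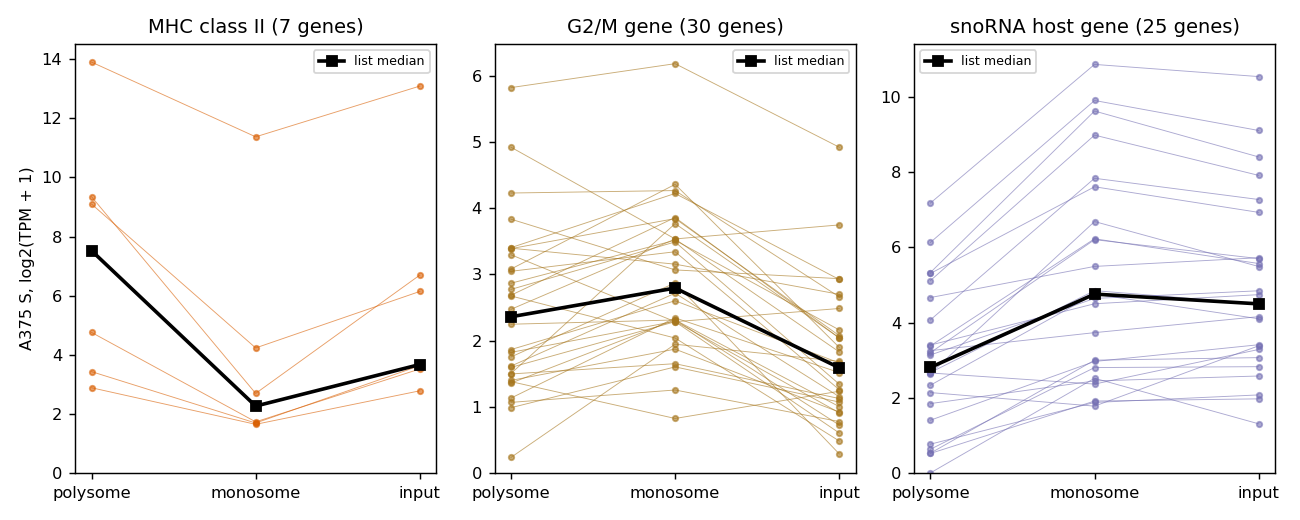
Values of 3 groups in the polysome, monosome and input libraries of A375 S, as log2(TPM + 1), with 1 line per gene and the group median as black squares. The median of the MHC class II genes is highest in polysomes, that of the snoRNA host genes is lowest in polysomes, and that of the G2/M genes is highest in monosomes with input lowest. The vertical scales differ between panels.

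Ferritin mRNAs were among the abundant mRNAs that lay low. Ferritin stores iron, and its mRNAs carry an iron-responsive element, a hairpin in the 5′ UTR. When iron is scarce, iron regulatory proteins grip its loop and keep ribosomes from starting. The loops are shown with their 6 bases in capitals, because a shared loop marks the mRNAs under this control.
FTL: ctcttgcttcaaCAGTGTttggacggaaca
FTH1: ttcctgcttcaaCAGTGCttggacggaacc
They were read from GENCODE 29 transcripts (GRCh38) at chr19:48965335-48965364 (+) for FTL and chr11:61967573-61967602 (−) for FTH1. FTL, the light chain, had 2236 TPM in polysomes, 10824 TPM in monosomes and 5853 TPM in input (-2.94). FTH1, the heavy chain with the iron-oxidising site, had 3072 TPM in polysomes, 4873 TPM in monosomes and 3970 TPM in input (-1.33). Both were thus lower in polysomes and higher in monosomes than in input. In P the values were further down, -6.21 for FTL and -5.33 for FTH1.

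The other mRNAs with an iron-responsive element did not move with ferritin as a group. Of 8 tested, 4 were lower and 1 higher, with a median of -0.67. TFRC, the transferrin receptor, whose elements lie in the 3′ UTR and act on mRNA stability, had 32.0 TPM in polysomes and 42.9 TPM in monosomes (-1.08). SLC11A2, an iron transporter, and CDC42BPA, a kinase, were both at -0.10. EPAS1, a hypoxia factor with a 5′ element, had 3.65 TPM in polysomes and 2.51 TPM in monosomes (-0.26).

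Selenoprotein mRNAs were sorted by where their selenocysteine codon lies. Selenocysteine is written as UGA, a stop codon elsewhere, and is put in by a dedicated elongation factor with a hairpin in the 3′ UTR, a step known to be slow and to lose some ribosomes. Of 18 tested, 5 were lower and 3 higher, with a median of -0.77. The shares over all genes tested were 16.7% lower and 20.8% higher. A coding sequence was used for 17 of them. This arrangement by codon position was added after the values were seen. In 10 the first in-frame UGA lies between 13.4% and 81.9% of the way through the codons, and in the other 7 it lies in the last 5%. Sites of 3 early and 2 late genes are shown with the codon in capitals (T for U).
SELENOW: ggcgctTGAggctac
SELENOT: gtttccTGAggttat
GPX4: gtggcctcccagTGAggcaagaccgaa
SELENOS: tcatctggcggaTGAggctaagaatct
TXNRD2: gtgacaggctgcTGAgggtaagcgcca
They come from GENCODE 29 transcripts (GRCh38): SELENOW codon 13 at chr19:47780726-47780740 (+), SELENOT codon 49 at chr3:150622386-150622400 (+), GPX4 codon 73 at chr19:1105391-1105417 (+), SELENOS codon 188 of 189 at chr15:101272765-101272791 (−) and TXNRD2 codon 523 of 524 at chr22:19877099-19877125 (−).

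The 10 early genes lay between -3.90 and -0.67 in S, with a median of -0.90, and the 7 late genes between -0.42 and 2.48, with a median of 0.31. SELENOW, a small redox protein of 87 residues, had 67.6 TPM in polysomes and 644 TPM in monosomes (-3.90). GPX4, the lipid peroxidase that guards against ferroptosis, had 150.5 TPM in polysomes and 221 TPM in monosomes (-1.22). On the late side, TXNRD2, the mitochondrial thioredoxin reductase, had 58.6 TPM in polysomes and 5.74 TPM in monosomes (2.48). SELENOS, of the endoplasmic reticulum, had 208 TPM in polysomes and 34.4 TPM in monosomes (1.89), and TXNRD1, the cytosolic reductase, had 63.1 TPM in polysomes and 38.8 TPM in monosomes (0.02). The ranges did not overlap. Coding length differs as well, with a median of 180 codons for early genes and 499 for late ones. Among genes longer than 300 codons the medians were -0.94 for the 3 early and 0.02 for the 5 late genes. The order was similar in P, which shares no library with S, where the early genes ran between -5.81 and -0.69 and the late ones between -0.52 and 1.49. In Yumm1.7 S the late median was 0.56 and the early median -0.38, and the ranges overlapped. The share of the coding sequence before the first UGA and the ratio had a Spearman correlation across the 17 genes of 0.81 in S and 0.73 in P.

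**Figure D4:**
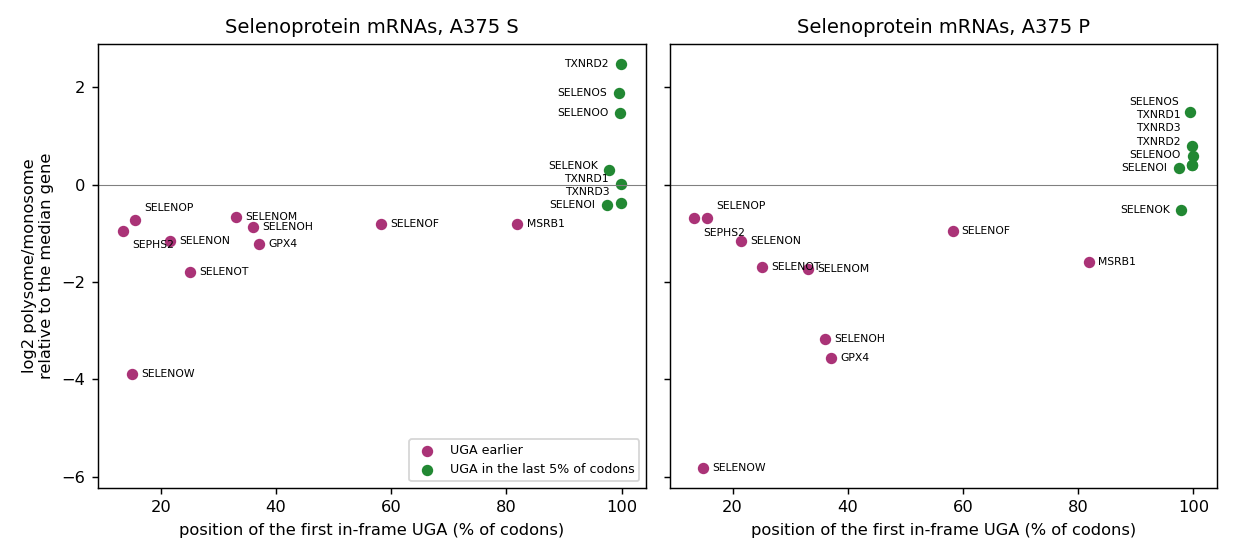
Position of the first in-frame UGA as a percentage of codons (x) against the centred log2 polysome-to-monosome ratio (y) for 17 selenoprotein genes, in A375 S on the left and A375 P on the right. Green genes have the UGA in the last 5% of codons and purple genes have it earlier. All purple points lie below all green points in both panels.

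A list of stress-response mRNAs and mRNAs known for short upstream reading frames lay somewhat low. Such frames catch scanning ribosomes before the main start, until phosphorylation of eIF2 lets more of them pass. Of 22 tested, 9 were lower and 1 higher, with a median of -0.79. ATF4, the main transcription factor of this response, had 78.0 TPM in polysomes, 169 TPM in monosomes and 222 TPM in input (-1.77). DDIT3, known as CHOP, had 27.9 TPM in polysomes and 38.1 TPM in monosomes (-1.10), and MDM2, the ubiquitin ligase of p53, had 8.46 TPM in polysomes and 20.005 TPM in monosomes (-1.82). Genes of polyamine metabolism on this list included AMD1, with 6.63 TPM in polysomes and 21.6 TPM in monosomes (-2.23). OAZ1, whose translation needs a frameshift and whose annotated 5′ UTR has 0 ATGs, had 401 TPM in polysomes and 614 TPM in monosomes (-1.28). AZIN1 was at -1.04 and SAT1 at -0.76, while ODC1 (-0.10) and OAZ2 (0.04) lay near the median gene. PPP1R15A, the stress-induced phosphatase subunit that acts on eIF2, was at 0.93 and its constitutive relative PPP1R15B at -1.36. NFE2L1, a factor that induces proteasome genes, was the single higher member with 224 TPM in polysomes and 41.9 TPM in monosomes (1.72).

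Genes of late cell division were scarce in S and sat relatively more in monosomes. Of 30 G2/M genes, 19 were lower, none higher, and the median was -1.21. Their TPM summed to 223 in polysomes, 289 in monosomes and 108 in input. BIRC5, survivin, had 1.83 TPM in polysomes, 12.6 TPM in monosomes and 3.11 TPM in input (-2.93). HMMR, a spindle protein, had 2.37 TPM in polysomes, 6.32 TPM in monosomes and 0.220 TPM in input (-1.79). UBE2C, the conjugating enzyme of the anaphase-promoting complex, had 7.46 TPM in polysomes, 19.6 TPM in monosomes and 2.72 TPM in input (-1.95). Relative to input and to the median gene, the list median was 0.71 in polysomes and 2.03 in monosomes. By this measure and by the TPM sums, both gradient libraries exceeded input, the monosome library by more. In P the same genes had a median of 1.46, with 20 higher and 2 lower, against 19.1% higher and 20.8% lower over all genes in P. The S median fell inside the 2-fold line with a pseudocount of 5 (-0.75), with every listed gene kept (-0.92) and without the subtraction of the median gene (-0.54). The libraries pool many cells, so fewer cells with the mRNA on polysomes and fewer ribosomes per mRNA in each cell cannot be told apart.

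G1/S genes, needed to copy DNA, were spread around the median gene with a median of -0.08, 6 of 30 higher and 7 lower. Over all genes tested 20.8% were higher and 16.7% lower, for comparison with this list and the histones below. MCM5 and MCM3, subunits of the replicative helicase, had 29.4 and 70.4 TPM in polysomes against 4.99 and 16.5 TPM in monosomes (1.68 and 1.36). TK1, thymidine kinase, had 11.2 TPM in polysomes and 19.4 TPM in monosomes (-1.41), and RRM2, of ribonucleotide reductase, had 6.33 TPM in polysomes and 11.5 TPM in monosomes (-1.44). The P median of this list was 1.14. Replication-dependent histone mRNAs, which end in a stem-loop and not in a tail, had 4 of 26 higher and 8 lower. H1-2, a linker histone, had 748 TPM in polysomes and 54.6 TPM in monosomes (3.09), while H4C5 was at -1.15. Copies of histone genes share sequence, so single members are uncertain.

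mRNAs of the mitochondrial genome are translated inside the organelle by mitochondrial ribosomes. In S their TPM summed to 56959 in polysomes, 65478 in monosomes and 122382 in input. Of 13, 6 were lower and 1 higher, with a median of -0.53. MT-CO2, a subunit of cytochrome oxidase, had 4549 TPM in polysomes and 11679 TPM in monosomes (-2.03), whereas MT-CO1, of the same enzyme, had 11835 TPM in polysomes and 10755 TPM in monosomes (-0.53). MT-ND1, of complex I, was at 0.22 and MT-ND5 at 0.27. MT-ATP8, with 2287 TPM in polysomes and 457 TPM in monosomes (1.65), overlaps MT-ATP6, with 4811 TPM in polysomes and 6808 TPM in monosomes (-1.17), on one transcript, so their reads may be split. In P all 13 were lower, with a median of -4.12.

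Nuclear genes of the respiratory chain lay on both sides of the median gene. Complex I genes had 12 of 37 higher and 2 lower, with a median of 0.53. NDUFV1, a core subunit of 464 residues, had 361 TPM in polysomes and 46.0 TPM in monosomes (2.28), and NDUFB1, an accessory subunit of 105 residues, had 54.2 TPM in polysomes and 178 TPM in monosomes (-2.37). Complexes III to V had 9 of 35 higher and 9 lower, beside 20.8% higher and 16.7% lower over all genes tested. UQCRC1, a core subunit of complex III of 480 residues, had 668 TPM in polysomes and 57.1 TPM in monosomes (2.86), whereas UQCRH, of 91 residues in the same complex, had 634 TPM in polysomes and 2066 TPM in monosomes (-2.37). ATP5F1B, of 529 residues, was at 2.31 and ATP5F1E, of 51 residues, at -2.51. Not all small subunits were low: NDUFA8, of 172 residues, was at 2.34 and NDUFB8, of 186 residues, at 2.11. SDHA, the large subunit of complex II with 664 residues, was among the 15 highest genes, with 168 TPM in polysomes and 3.59 TPM in monosomes (4.54).

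Among genes for short secreted or cytosolic proteins, 12 of 39 were lower and 4 higher, with a median of -0.31. OST4, a subunit of the glycosylating enzyme with 37 residues, had 107 TPM in polysomes and 481 TPM in monosomes (-2.82). TMSB10, an actin-binding peptide of 44 residues, had 1156 TPM in polysomes and 3987 TPM in monosomes (-2.45), and TOMM7, of the mitochondrial import pore with 55 residues, was at -2.76. CFL1, cofilin with 166 residues, was higher at 2.39. Genes for very large proteins had 10 of 41 higher and none lower, with a median of 0.29. Over all genes tested 20.8% were higher and 16.7% lower, and over genes of 1600 or more residues 23.5% and 5.31%. The share of higher genes was thus near that of all genes. FLNA, filamin, had 209 TPM in polysomes and 17.1 TPM in monosomes (2.87), and GOLGB1, a Golgi tether, had 129 TPM in polysomes, 13.6 TPM in monosomes and 20.1 TPM in input (2.49).

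Over 11092 protein-coding genes with an annotated coding sequence (99.5% of those tested), protein length had a Spearman correlation across genes of 0.13 with the ratio in S and 0.34 in P. Genes are not independent replicates, and these values are descriptions. The relation in S lay at the short end. The 224 genes under 100 residues had a median of -1.001, with none higher and 50.9% lower, and the 1188 genes of 100 to under 200 residues had a median of -0.29. Medians then stayed between 0.15 and 0.19 in the 4 classes of longer proteins. In P the medians went on rising with length, -1.58 in the shortest class, -0.68, -0.05, 0.23, 0.48 and 0.59 in the longest.

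Among other properties of the mRNA, examined after the data were seen, 3′ UTR length, coding GC content and exon number had larger correlations with the S ratio than protein length had. The number of exons had a Spearman correlation of 0.19 in S and 0.38 in P. The length of the 3′ UTR had a Spearman correlation of -0.32 in S and -0.16 in P. Median values in S were 0.69 for 3′ UTRs of 200 to under 500 bases, -0.02 for 1000 to under 2000 and -0.30 for 4000 or more. In the class of 200 to under 500 bases 40.5% of genes were higher, and in that of 2000 to under 4000 bases 8.57% were. GC content of the coding sequence had a correlation of 0.21 in S and 0.01 in P, with S medians of -0.44 up to 40% GC and 0.44 at 55 to 60% GC. GC content ran with the monosome-to-input ratio at -0.44, and the S median of polysomes over input was 0.07 up to 40% GC and -0.04 above 60%. Both properties showed when crossed. With GC of 55% or more the S median was 0.87 for 3′ UTRs under 500 bases and 0.00 for 2000 or more, and with GC under 45% it was 0.29 and -0.60. The number of ATGs in the 5′ UTR had a correlation of -0.12 in S and -0.10 in P, with S medians of 0.24 for none and -0.17 for 5 or more. The length of the 5′ UTR had one of -0.04.

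**Figure D5:**
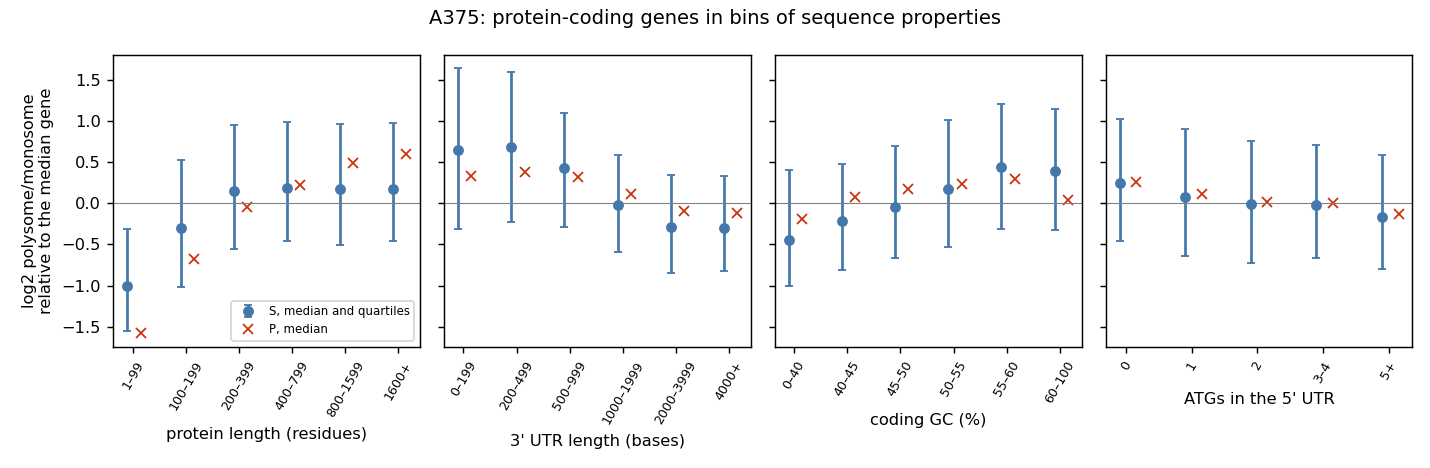
Centred log2 polysome-to-monosome ratio of protein-coding genes in A375 in classes of protein length, 3′ UTR length, coding GC content and number of ATGs in the 5′ UTR. Blue points and bars are the S median and quartiles, and red crosses the P median. In S the shortest proteins, the longest 3′ UTRs and the lowest GC lie lowest, and the P crosses climb further with protein length and change less with GC.

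Melanoma state genes spread to both sides of the median gene. NGFR, a neural crest receptor that marks a drug-tolerant melanoma state, had 836 TPM in S polysomes, 199.7 TPM in S monosomes and 757 TPM in S input (1.39), whereas P had 0.212 TPM in polysomes and 0.102 TPM in monosomes. Of 17 genes on the neural crest-like list, 7 were higher and 1 lower, with a median of 0.02. NES, nestin, had 523 TPM in polysomes and 64.4 TPM in monosomes (2.33). SOX10, a lineage factor, had 197 TPM in polysomes and 78.7 TPM in monosomes (0.65), and MITF, the master regulator of pigment cells, had 32.0 TPM in polysomes and 44.2 TPM in monosomes (-1.12). PMEL, the fibril protein of melanosomes, had 110 TPM in polysomes and 4.50 TPM in monosomes (3.67), and was the single melanocyte differentiation gene of 12 that was higher. AXL, a receptor kinase of resistant melanoma, had 10.5 TPM in polysomes and 6.18 TPM in monosomes (0.02), with 2.81 TPM in input.

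Among genes driven by the MAPK pathway, none was at least 2-fold higher in S polysomes. Of 21 tested, 7 were lower, with a median of -0.68. A gene at 0 in both S libraries would lie 0.67 below the median gene. DUSP6, a phosphatase that feeds back on ERK, had 2.57 TPM in polysomes and 3.81 TPM in monosomes in S (-1.10), against 150.1 TPM in polysomes and 65.9 TPM in monosomes in P (0.12). SPRY4, another feedback inhibitor, had 0.425 TPM in polysomes and 3.54 TPM in monosomes (-2.34), and SPRED1 had 8.08 TPM in polysomes and 21.5 TPM in monosomes (-1.98). CCND1, cyclin D1, had 39.5 TPM in polysomes and 40.5 TPM in monosomes (-0.70). Among immediate early and labile mRNAs, 9 of 35 were higher and 5 lower, beside 20.8% higher and 16.7% lower over all genes tested. ID1, an inhibitor of helix-loop-helix factors, had 1085 TPM in polysomes and 159 TPM in monosomes (2.10), and JUNB was at 1.87.

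Several of the highest genes overlap other annotations, between which reads can be split, or have near-identical copies. NME1-NME2, a readthrough gene of NME1 and NME2 on chromosome 17, had 639.6 TPM in polysomes and was listed at 0 in monosomes. The 3 genes summed, a check added after the values were seen, had 2154 TPM in polysomes, 1272 TPM in monosomes and 1637 TPM in input, a value of 0.09. NGRN, a mitochondrial ribosome assembly protein that shares its locus with other annotations, had 156 TPM in S polysomes, was listed at 0 in S monosomes and had 233 TPM in S input (polysome over input -0.57), whereas P had 82.4 TPM in polysomes and 81.2 TPM in monosomes. PRKAG1, a subunit of AMP-activated kinase, had 182 TPM in S polysomes and 0.131 TPM in S monosomes, against 128 TPM in P polysomes and 29.4 TPM in P monosomes. ERCC5, a repair nuclease that overlaps the readthrough BIVM-ERCC5, was at 4.93. ANXA2P2 (4.82) is a pseudogene that shares reads with ANXA2. ILK, an integrin-linked kinase, overlaps TAF10 on the opposite strand and had 144 TPM in polysomes and 1.24 TPM in monosomes (5.35), and KAT5, an acetyltransferase that overlaps RNASEH2C on the opposite strand, had 45.5 TPM in polysomes and 0.434 TPM in monosomes (4.35). MVP, the shell protein of vault particles, overlaps a further annotation on its own strand and had 520 TPM in polysomes and 13.1 TPM in monosomes (4.54).

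P gives the nearest contrast in the same table and shares no library with S. Across the 12638 genes the ratios in S and P had a Spearman correlation of 0.74 and a Pearson correlation of 0.74. In both states 1696 genes were higher, which is 64.6% of the S calls and 70.4% of the P calls, and 1384 were lower, which is 65.5% of the S calls and 52.5% of the P calls. Calls in opposite directions were few, 42 genes higher in S and lower in P and 45 the reverse. Proteasome (1.98 in S and 1.99 in P), glycolysis (1.96 and 2.12) and splicing genes (1.52 and 1.74) had like medians in both states. Wider gaps were seen for mitochondrial mRNAs (-0.53 in S and -4.12 in P), small structured RNAs (-5.68 and -2.14), G2/M genes (-1.21 and 1.46), G1/S genes (-0.08 and 1.14), snoRNA host genes (-2.84 and -3.97) and short proteins (-0.31 and -1.18). In the S state of mouse Yumm1.7 cells, a separate table, the proteasome median was 1.72, the G2/M median -0.75, the snoRNA host median -0.68, the lysosome median 0.13 and the mitochondrial mRNA median 0.53. No difference between states or lines has a replicate check.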

How the data were processed

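RNA was taken from input, monosome and polysome fractions of A375 cells, caught on poly-T beads and made into libraries by random priming and PCR, per the labels' protocols. The values are TPM, calculated by the authors and deposited as 1 table per cell line. The genome builds were GRCh38 (hg38) and GRCm38 (mm10), per the submitters' processing notes. The aligner was not given in the sources used here, nor were quantifier, annotation or strandedness. TPM keeps no depth, so the depth per library is unknown and no counting interval is given. TPM is relative within a library and says nothing of how much RNA a fraction held.

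From the deposited TPM, log2 (TPM + 1) of monosome was subtracted from that of polysome, the median over 12638 genes was taken off, and values of at least 2-fold were counted. Adding 1 TPM draws the uncentred ratio of a low gene towards 0. With the median taken off, that point lies 0.67 below the median gene in S and 1.05 below it in P. A gene at 0 in both libraries would thus count as lower in P without any difference. HLA-DOA had 0.229 TPM in P polysomes and 0.071 TPM in P monosomes, yet its P value was -0.85. Each group has 1 library, so no statistical test was made. Gene lists (46 with the markers, and MHC class II besides) and their members were chosen with earlier results of these data known, and the properties other than protein length and the arrangement by UGA position were added after the data were seen. The genes named are the 15 highest and 15 lowest with a mean of at least 10 TPM, in each list the 6 or fewer members farthest from 0 that averaged 5 TPM or more, every tested member of the mitochondrial, snoRNA host, iron, selenoprotein and upstream reading frame lists, and a fixed set of melanoma and translation genes. Values of some genes that this rule covers are not reported here. Values of one library per group are printed with no SD.

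Coding sequences, UTRs and coordinates came from GENCODE 29 (GRCh38), matched by gene ID through the symbols, and classes and start sites from RefSeq (12456 genes matched, 9867 with a start site window). The coding sequence began with ATG in 99.8% of the genes with one. The calculation was tested on simulated data. Alternatives were pseudocounts of 0.1 and 5, other expression minimums, no centring, centring on protein-coding genes (by RefSeq class, since no protein table was used here), and input in place of monosome. Python 3.11.15, pandas 2.3.3, numpy 2.4.6, scipy 1.17.1 and matplotlib 3.10.9 were used.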

Additional observations from a re-analysis of the deposited data

Results flagged for a closer look

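A few results had opposite directions in S and P, past 2-fold in each state. Each rests on 1 library per fraction and state, so the difference between the states was not tested. The G2/M list had a median of -1.21 in S and 1.46 in P. Within cell division genes, TK1 was at -1.41 in S and 2.05 in P, HMMR at -1.79 in S and 1.25 in P, and PBK, a mitotic kinase, at -1.84 in S and 1.25 in P. PBK had 5.43 TPM in polysomes and 13.5 TPM in monosomes in S, against 330 TPM in polysomes and 66.1 TPM in monosomes in P. IRF9 was at 3.59 in S and -1.83 in P, where it had 0.651 TPM in polysomes and 1.84 TPM in monosomes. MT-ATP8 was at 1.65 in S and -3.31 in P. NGRN was at 6.63 in S and -1.03 in P, and its S value rests on a listing at 0 in S monosomes. The histone gene H2BC5 was at 1.38 in S and -1.59 in P, with 73.1 TPM in polysomes and 16.9 TPM in monosomes in S and 1.26 TPM in polysomes and 2.28 TPM in monosomes in P. IRF9 and H2BC5 were thus near the expression minimum in P, and the cell division genes were scarce in S.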

How the results depend on the processing

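No paired analysis was possible because each group has 1 library. The count of higher genes was 2624 as reported, 4892 without centring and 1322 for polysome over input, and the count of lower genes was 2114 as reported, 614 without centring, 681 with a pseudocount of 5 and 1195 for polysome over input. With a pseudocount of 5 the medians of nuclear noncoding RNAs (-0.96), interferon-stimulated genes (0.62) and G2/M genes (-0.75) came inside 2-fold, as did those of nuclear noncoding RNAs (-0.84) and G2/M genes (-0.54) without centring, and of G2/M genes (-0.92) with every listed gene kept. With genes averaging 5 TPM or more in the 2 S gradient libraries, chosen after seeing the data, the interferon median was 0.97 and the correlation with protein length 0.20. Polysome over input shares the polysome library with the reported contrast. There small structured RNAs were at -0.72, lysosome at 0.37, interferon-stimulated genes at 0.54 and tubulins and actins at 0.95, and the correlation with protein length was 0.23. The direction reversed there for G2/M genes (0.71), RRM2 (0.48), TK1 (0.79), HMMR (1.47), PBK (0.65), UBE2C (1.19), ETV4 (0.19), HLA-DMB (-0.20), ERAP1 (-0.42), SCARNA7 (0.53), MT-ATP8 (-0.90), H4C14 (-0.31) and NGRN (-0.57), which is listed at 0 in monosomes. The cause was not tested. Of 41 list medians, 41 kept their side of 2-fold with a pseudocount of 0.1 and when centred on protein-coding genes. Of 324 named genes, 317 and 318 did. Library depth is unknown, so values of genes at a few TPM, the G2/M and MAPK lists among them, have an error that cannot be given.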

Other observations

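Lists outside the report's comparisons spread to both sides of the median gene. Their counts stand beside 20.8% higher and 16.7% lower over all genes tested. Cholesterol synthesis genes had 8 of 23 higher and 1 lower, with a median of 0.49. FDPS, which makes farnesyl diphosphate, had 273 TPM in polysomes and 28.8 TPM in monosomes (2.54), and INSIG1, which holds the sterol sensor in the endoplasmic reticulum, had 11.3 TPM in polysomes and 31.5 TPM in monosomes (-2.07). Amino acid transporters had 2 of 17 higher and 3 lower, with a median of -0.06. SLC3A2, the common heavy chain of several transporters, had 206 TPM in polysomes and 22.3 TPM in monosomes (2.48), while SLC38A2, a glutamine transporter, had 18.5 TPM in polysomes and 48.4 TPM in monosomes (-2.005).

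Receptor tyrosine kinases had 2 of 16 higher and 3 lower. ERBB2 had 30.9 TPM in polysomes and 5.05 TPM in monosomes (1.73), whereas ERBB3, its partner receptor, had 205 TPM in polysomes and 269 TPM in monosomes (-1.06). Components of mTORC1 and its regulators had 2 of 18 higher and 3 lower. RRAGA, a GTPase that brings mTORC1 to lysosomes, was at 1.80, and LAMTOR1, the anchor of its docking complex with 161 residues, was at -2.14, with 50.6 TPM in polysomes and 142 TPM in monosomes. Mitochondrial ribosomal protein genes had 8 of 29 tested higher and 2 lower, and the others are not analysed here. MRPS9 had 176 TPM in polysomes and 26.6 TPM in monosomes (2.02). Elongation and release factors had 6 of 15 higher and 1 lower, and TUFM, the mitochondrial elongation factor, had 845 TPM in polysomes and 101 TPM in monosomes (2.39).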
